A study of Homo sapiens with 6 samples.

Results

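Keratins are the intermediate filament proteins of epithelial cells. The 10 keratin genes described here (KRT7, KRT8, KRT18, KRT19, KRT80, KRT81, KRT5, KRT6A, KRT16 and KRT17) were taken by gene name from a table of 58825 genes in PC9, an established human lung adenocarcinoma cell line. All 10 names were found, each on 1 row. The PC9 cells overexpressed the transcription factor FOXM1 as the G allele of the variant rs3742076 in 3 libraries (the G libraries) and as its A allele in 3 libraries (the A libraries). All 6 received 100 nM gefitinib, an inhibitor of the EGF receptor kinase, for 24 h, and the series asks about the response to gefitinib and Wnt/β-catenin signalling. Every library therefore carries both FOXM1 overexpression and gefitinib, and none without them was analysed here. The labels do not say whether the 3 libraries of an allele came from separate cultures or clones, so a p-value here reflects the variation among these 6 libraries alone, possibly of technical origin.

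A keratin filament is built from pairs of 1 type I and 1 type II chain, so that a cell needs both kinds to make filaments. Simple epithelia, the lung lining and lung adenocarcinoma among them, use the type II chains KRT8 and KRT7 with the type I chains KRT18 and KRT19. KRT5 marks basal cells of stratified and airway epithelia, KRT6A, KRT16 and KRT17 are induced in injured or fast-growing squamous epithelium, KRT80 is a type II chain of several epithelia, and KRT81 is a type II hair keratin. The filaments end at desmosomes and hemidesmosomes, the junctions that hold epithelial cells to each other and to the matrix.

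Reads reach the right keratin only where the chains differ in sequence, so the end of the coiled rod, the most conserved stretch of the family, is shown first for 4 type I chains. Each line holds 60 coding bases that end within the helix termination motif, taken from the transcript sequences of GENCODE release 29 on GRCh38. Within each set, capitals mark the bases that differ from the first member. KRT19 differed from KRT18, the other simple type I chain, at 15 of these bases, and KRT17 differed from KRT16, the other squamous one, at 1.
KRT18: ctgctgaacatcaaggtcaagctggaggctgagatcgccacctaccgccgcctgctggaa
KRT19: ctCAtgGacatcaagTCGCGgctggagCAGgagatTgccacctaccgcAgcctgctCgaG
KRT16: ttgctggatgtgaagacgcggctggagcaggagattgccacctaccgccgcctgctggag
KRT17: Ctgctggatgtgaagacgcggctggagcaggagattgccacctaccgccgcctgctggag

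Over the whole coding sequence, KRT6A was 97.9% identical to KRT6C and 97.5% to KRT6B, and KRT81 was 90.1% identical to KRT86. The simple keratins were further apart, at 66.4% for KRT8 and KRT7 and 57.2% for KRT18 and KRT19. When the main transcript of each gene was cut into every window of 150 bases, the length of 1 read, 25.6% of the KRT81 windows also occurred in KRT86, and 9.25% of the KRT6A windows in KRT6C or KRT6B. KRT16 shared 0.736% of its windows with KRT14 or KRT16P3. KRT7, KRT8, KRT18, KRT19, KRT80, KRT5 and KRT17 shared 0 windows with another gene. By this measure, exact read sharing touches KRT81 and KRT6A in the main. Values for those 2 genes are uncertain to that extent. Windows were compared in the direction of the transcript only. Overlaps with genes on the opposite strand, as in KRT7, KRT8 and KRT18, were therefore not counted.

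The RNA values are FPKM, fragments per kilobase of transcript, scaled to the mapped fragments of the library. The gene values and transcript values follow different lengths. Each deposited gene value equalled the length-weighted sum of its transcripts divided by 1 fixed length, which was 6881 bases for KRT8, 3999 for KRT7, 3069 for KRT18 and 2336 for KRT19. For KRT8 and KRT19 that length is the number of bases in the union of all annotated exons. A gene with long minor transcripts, such as KRT8, is thereby set low against its neighbours. Levels of different genes are therefore compared on the sum of transcript FPKM, which counts each transcript per its own length, and the alleles are compared on the gene values.

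On the scale of summed transcript FPKM, KRT19 was the most abundant of the 10 keratins, at 2314, 2642 and 2514 in the G libraries and 2422, 2809 and 2663 in the A libraries. KRT8 followed at 1302, 1339 and 1316 in the G libraries and 1392, 1561 and 1446 in the A libraries. KRT18 exceeded KRT8 in A replicate 2, so the place of KRT8 above KRT18 holds for the mean and for the other 5 libraries. In all 6 libraries KRT19 lay above KRT8 by this measure, on average 1.84-fold. KRT7 ranged between 1036 and 1229 and KRT18 between 966 and 1649. These neighbours in the order had overlapping ranges and means of 1120 and 1109. KRT7 lay above KRT18 in 5 libraries and below it in A replicate 2, so their order does not hold in every library. KRT8 lay above KRT7 in every library, on average 1.24-fold. By the deposited gene values the same 4 keratins would stand as KRT19, KRT18, KRT7 and KRT8.

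A wide step separated these simple keratins from the rest. Summed transcript FPKM averaged 57.8 for KRT80, 27.1 for KRT16, 1.65 for KRT6A, 1.45 for KRT17, 0.751 for KRT5 and 0.444 for KRT81 over the 6 libraries. KRT18 exceeded KRT80 by 19.2-fold and KRT16 exceeded KRT6A by 16.4-fold. The ranges of KRT6A and KRT17 overlapped, as did those of KRT5 and KRT81. Within a library, KRT6A lay above KRT17 in 3 of the 6 and KRT5 above KRT81 in all 6, with few reads for the latter pair. By gene value, the 4 simple keratins made up 96.7% to 97.8% of the summed FPKM of the 10 genes in the G libraries and 97.6% to 98.2% in the A libraries.

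**Figure D1:**
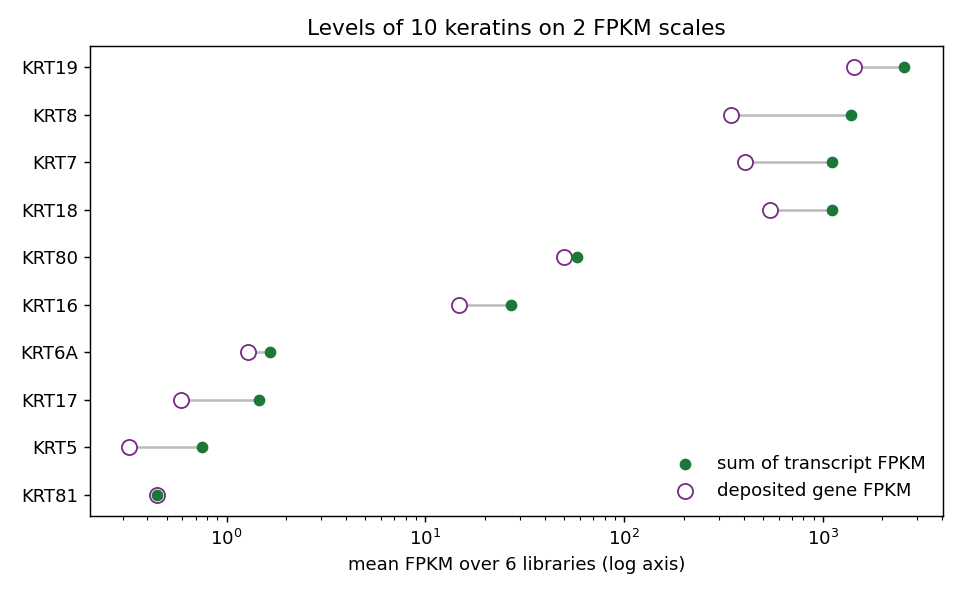
Mean FPKM of the 10 keratins over the 6 libraries on a log axis, as the sum of transcript FPKM (filled points) and as the deposited gene value (open points). KRT8 ranks above KRT7 and KRT18 as a transcript sum (mean 1393) and below both as a gene value (mean 347).

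With a mean above 99% of the tested genes for each of the 4, the simple keratins rested on many reads. The files give no read counts, and depth was estimated from the step that 1 read pair makes in low values, at 19820000 to 23340000 read pairs per library. At that depth KRT19 corresponded to at least 65063 read pairs in a library and KRT7 to at least 29362. KRT81 corresponded to 10.2 to 28.3 read pairs and KRT5 to 16.2 to 42.9. Differences in KRT5, KRT17 and KRT81 are limited by that depth.

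No keratin of the 10 passed the test between the alleles. Genes were tested with limma on log2(FPKM + 1) when they reached 1 FPKM in 3 or more libraries, 12787 in all, with p-values adjusted over all of them and 0.05 as the threshold. Of the 10 keratins, 7 were tested and 0 were called, and of all tested genes 14, or 0.109%, were called, 0.0313% as higher and 0.0782% as lower in the G libraries. The smallest adjusted p among the 7 was 0.18. At an unadjusted p under 0.05 there were 3 keratins, KRT7, KRT8 and KRT80, against 17.3% of all tested genes. The median log2 change of the 7 was -0.08, beside 0.02 over all tested genes, with 5 negative and 2 positive. KRT5, KRT17 and KRT81 stayed under 1 FPKM in every library and were not tested in that fit.

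**Figure D2:**
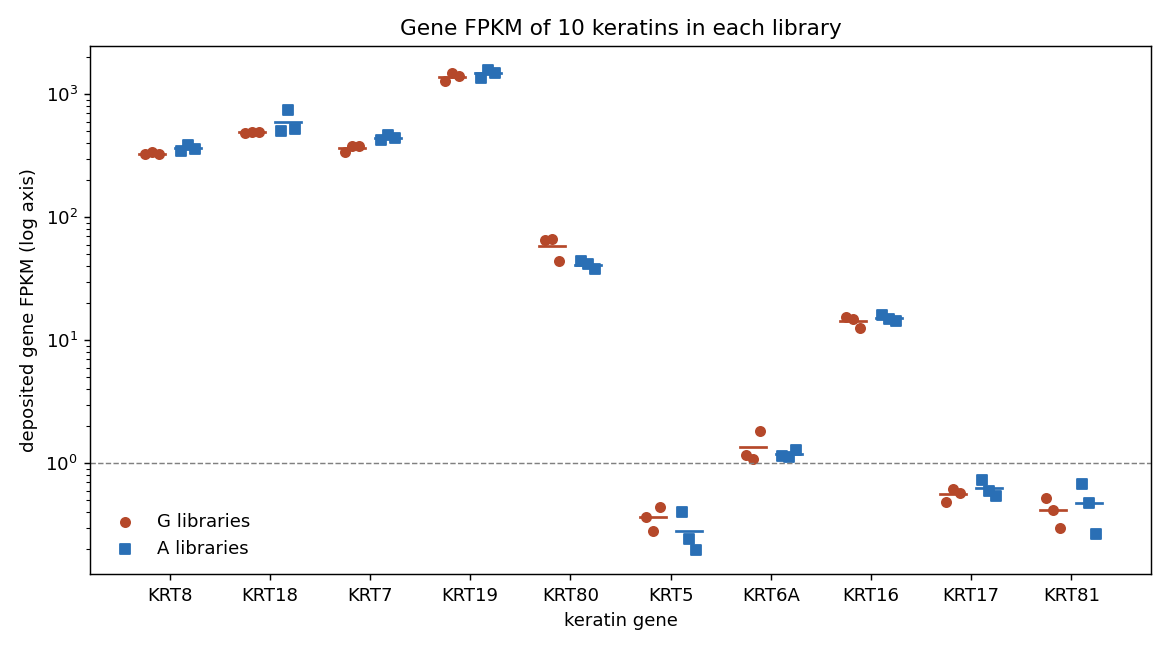
Deposited gene FPKM of each keratin in each library on a log axis, G libraries as circles to the left and A libraries as squares to the right, with a line at each mean. The dashed line marks 1 FPKM; KRT5, KRT17 and KRT81 lie below it in all 6 libraries.

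KRT8 and KRT18 are the first keratins of the embryo and the basic pair of simple epithelia. KRT8 (chromosome 12, 52897187 to 52949954, minus strand) was at 325, 338 and 328 FPKM in the G libraries and 348, 386 and 359 FPKM in the A libraries. Every G library lay below every A library. The means were 330.3 ± 6.71 FPKM in the G libraries and 364 ± 19.4 FPKM in the A libraries (SD, n = 3 each), a log2 change of -0.14 with a standard error of 0.05 (limma adjusted p = 0.25). With each library scaled to the same sum, the KRT8 change was -0.03.

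KRT18 (chromosome 12, 52948871 to 52952906, plus strand) was at 489, 491 and 492 FPKM in the G libraries and 500.4, 752 and 527 FPKM in the A libraries. The G libraries were nearly identical and lay below all A libraries, while A replicate 2 stood apart from the other A libraries. The means were 491 ± 1.53 FPKM in the G libraries and 593 ± 138 FPKM in the A libraries (SD, n = 3 each), a log2 change of -0.25 with a standard error of 0.15 (limma adjusted p = 0.44). Without A replicate 2 the log2 change was -0.06, so most of the difference came from that library. KRT8 and KRT18 are neighbours on opposite strands whose annotated exons share 525 bases. The library kit marks the strand, but the strand setting of the counting is not given in the sources used here, and reads within those bases could have been assigned to either gene.

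KRT7 is the type II chain that, with KRT19, marks glandular and ductal epithelium and is widely used to recognise lung adenocarcinoma. KRT7 (chromosome 12, 52232520 to 52252186, plus strand) was at 341, 381 and 384 FPKM in the G libraries and 426, 468 and 443 FPKM in the A libraries. Its groups did not overlap, and the gap between the highest G and the lowest A library was wider than in KRT8 or KRT18. The means were 369 ± 24.1 FPKM in the G libraries and 446 ± 21.0 FPKM in the A libraries (SD, n = 3 each), a ratio of 0.827 and a log2 change of -0.28 with a standard error of 0.06. The unadjusted p was 0.0046 and the limma adjusted p 0.18. Over all 18 alternative settings the log2 change of KRT7 stayed between -0.31 and -0.15 and its adjusted p between 0.11 and 0.40.

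KRT19, a short type I chain without the usual tail, is the source of the serum marker CYFRA 21-1 in lung cancer. KRT19 (chromosome 17, 41523617 to 41528308, minus strand) was at 1292, 1481 and 1413 FPKM in the G libraries and 1360, 1579 and 1498 FPKM in the A libraries. The groups overlapped. The log2 change was -0.08 with a standard error of 0.08 (limma adjusted p = 0.60), and it was positive, at 0.03, with equal sums per library and 0.25 with quantile normalization. The ratio of KRT7 to KRT19 does not change when a library is scaled by 1 factor. It was 0.264, 0.257 and 0.271 in the G libraries and 0.313, 0.296 and 0.296 in the A libraries. All G libraries were below all A libraries, with a log2 difference of -0.19 and an exact two-sided permutation p of 0.1, the smallest that 3 against 3 libraries can give. On summed transcript FPKM, a scale chosen after seeing the data, that difference was -0.10 (exact permutation p = 0.3).

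In all, 3 of the 7 tested keratins (KRT7, KRT8 and KRT18) had every G library below every A library, an arrangement found in 9.57% of all tested genes, and 0 of the 7 had every G library above, found in 15.4%. Groups that did not overlap in either direction made up 24.9% of all tested genes. The FPKM of all genes summed to between 253706 and 255269 in the G libraries and between 270219 and 277596 in the A libraries, so a scaling to equal sums adds to every change and moved the median of all genes to 0.11. Relative to the median of all genes, KRT7 was at -0.30 on the deposited values and at -0.28 after that scaling. KRT18 stood at -0.27 and -0.25 by the same measure, KRT8 at -0.16 and -0.14, and KRT19 at -0.11 and -0.08.

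**Figure D3:**
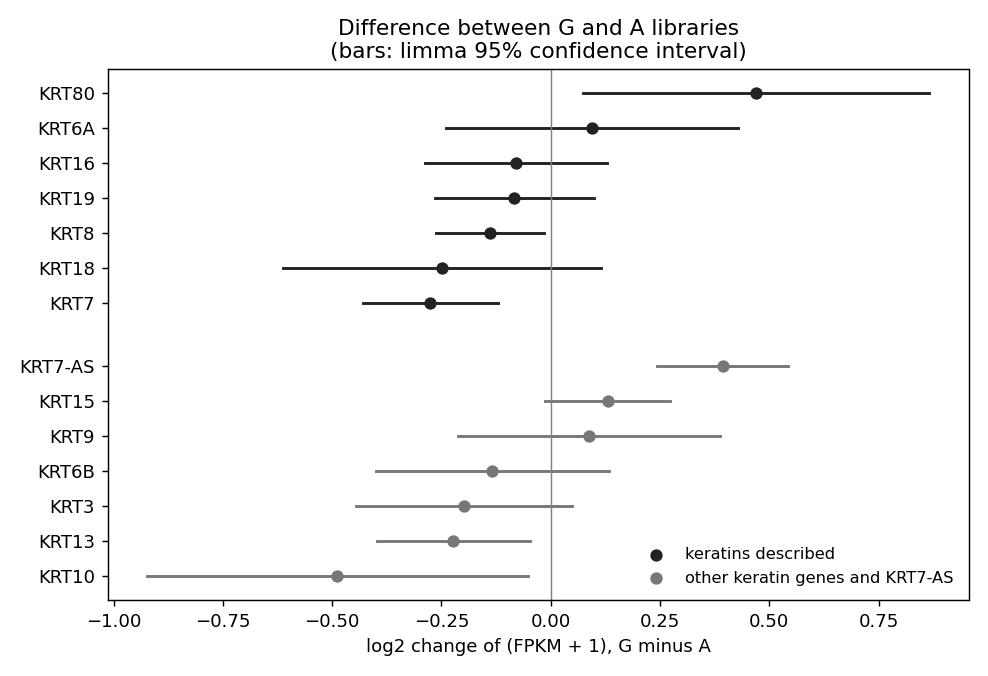
Log2 change of FPKM + 1, G minus A, for the 7 tested keratins (black) and for other keratin genes and KRT7-AS (grey), with limma 95% confidence intervals as bars. KRT7 at -0.28 and KRT80 at 0.47 lie on opposite sides of 0, and neither passed the adjusted threshold.

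Another transcript lies inside the KRT7 gene. KRT7-AS, an antisense RNA (chromosome 12, 52245048 to 52247448, minus strand), shares 282 exon bases with KRT7. It was at 25.9, 26.4 and 24.4 FPKM in the G libraries and 18.4, 20.4 and 19.0 FPKM in the A libraries. Here every G library lay above every A library, the opposite arrangement to KRT7. The log2 change was 0.39 with a standard error of 0.06 (unadjusted p = 0.00057, limma adjusted p = 0.15), and over the alternative settings it ranged between 0.36 and 0.50, with adjusted p-values between 0.069 and 0.35. As a percentage of the KRT7 value in the same library, KRT7-AS was 7.61%, 6.93% and 6.37% in the G libraries and 4.31%, 4.36% and 4.28% in the A libraries. The log2 difference of that ratio was 0.69, with an exact two-sided permutation p of 0.1, the smallest possible here. This ratio was chosen after the values were seen. With KRT7 lower and KRT7-AS higher in every G library, its groups had to separate, so that p was fixed in advance and adds no support. Without the strand setting, reads of the shared bases could belong to either RNA, and the part of this in the opposite values was not tested.

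**Figure D4:**
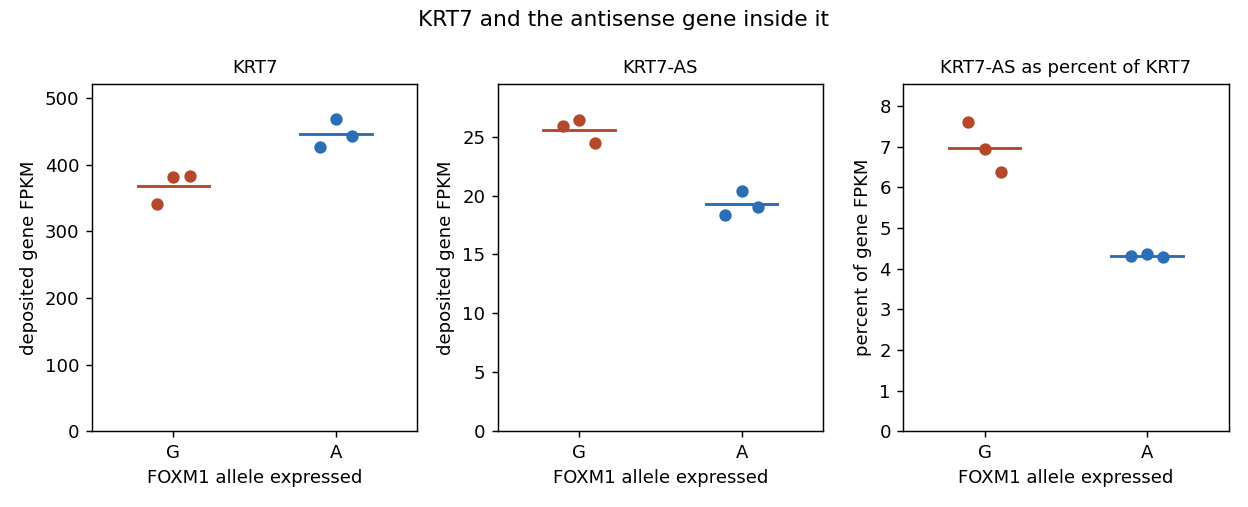
Gene FPKM of KRT7, gene FPKM of KRT7-AS and KRT7-AS as a percentage of KRT7, with G libraries left of A libraries, 1 point per library and a line at each mean. KRT7 is lower and KRT7-AS higher in all 3 G libraries, and the percentage is 6.37 or more in G libraries against 4.36 or less in A libraries.

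KRT80 had the largest log2 change of the 7 tested keratins and the opposite sign to the simple keratins. KRT80 (chromosome 12, 52168996 to 52192014, minus strand) was at 65.0, 66.2 and 44.0 FPKM in the G libraries and 44.4, 41.5 and 37.9 FPKM in the A libraries. Replicates 1 and 2 of G lay above all A libraries, while G replicate 3 lay just below A replicate 1, so the groups overlapped. The means were 58.4 ± 12.5 FPKM in the G libraries and 41.3 ± 3.26 FPKM in the A libraries (SD, n = 3 each), a log2 change of 0.47 with a standard error of 0.16 (unadjusted p = 0.027, limma adjusted p = 0.24). Under the alternatives the KRT80 change stayed positive, from 0.37 without G replicate 2 to 0.66 without G replicate 3.

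The KRT80 difference was unevenly spread over its 3 annotated transcripts, which are described here because of their values. ENST00000466011, annotated as a retained intron, was at 31.9, 21.0 and 10.5 FPKM in the G libraries and 11.05, 8.16 and 5.35 FPKM in the A libraries. G replicate 3 was below A replicate 1, so this transcript overlapped as the gene did, with a log2 change of 1.19 (limma adjusted p = 0.62 over 29990 tested transcripts). The most abundant coding transcript, ENST00000313234, was at 28.2, 28.4 and 25.0 FPKM in the G libraries and 21.0, 26.1 and 18.3 FPKM in the A libraries (log2 change 0.32, limma adjusted p = 0.68). Coding transcripts took 61.9%, 75.4% and 81.4% of the KRT80 reads in the G libraries and 80.7%, 84.7% and 89.0% in the A libraries. The mean shares were 72.9% ± 10.0 in the G libraries and 84.8% ± 4.19 in the A libraries (SD, n = 3 each), and the groups overlapped (exact two-sided permutation p = 0.2).

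**Figure D5:**
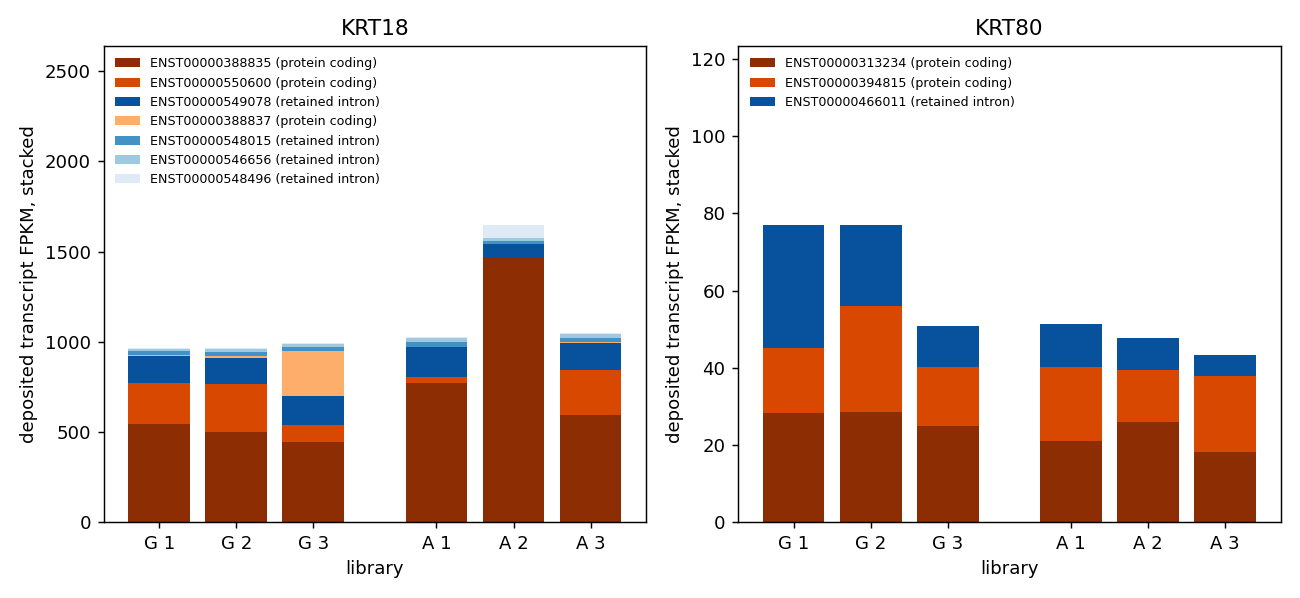
Deposited transcript FPKM of KRT18 and KRT80, stacked in each library, with G libraries left of A libraries, coding transcripts in brown and orange and retained introns in blue. A replicate 2 carries 1461 FPKM of a single KRT18 coding transcript, and the retained intron of KRT80 is highest in G replicate 1 at 31.9 FPKM.

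KRT18 showed the same kind of unevenness between libraries. Its main transcript, ENST00000388835, was at 544, 501 and 445 FPKM in the G libraries and 771, 1461 and 596 FPKM in the A libraries. All G libraries were below all A libraries, with a log2 change of -0.82 and a limma adjusted p of 0.64. Another coding transcript, ENST00000550600, was at 230, 267 and 94.6 FPKM in the G libraries and at 35.6 and 246 FPKM in A replicates 1 and 3, and had no estimate in A replicate 2. ENST00000388837, the last coding transcript, was at 250.3 FPKM in G replicate 3 and at 2.12 to 8.92 FPKM in the 4 other libraries with an estimate. These 3 transcripts have different annotated starts (52948871, 52948886 and 52949118), and in the G libraries their sum varied less than each of them. Summed, the coding transcripts of KRT18 gave 779, 777 and 790.3 FPKM in the G libraries and 809, 1461 and 846 FPKM in the A libraries.

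The remaining simple keratins each had 1 dominant transcript. ENST00000331817 took between 88.9% and 96.5% of the KRT7 reads of a library and was at 746, 888 and 887 FPKM in the G libraries and 1001, 1111 and 1043 FPKM in the A libraries (log2 change -0.33, limma adjusted p = 0.52). ENST00000552150, the main transcript of KRT8, was at 931, 998 and 948 FPKM in the G libraries and 1029.7, 1165 and 1104 FPKM in the A libraries (log2 change -0.20, limma adjusted p = 0.58). Both repeated the arrangement of their genes, with all G libraries below all A libraries, but they are drawn from the same reads. The main KRT19 transcript, ENST00000361566, held 90.6% to 91.5% of the KRT19 reads and differed by -0.09 on the log2 scale (limma adjusted p = 0.80). Of 80 annotated transcripts of the 10 keratins, 43 were tested and 0 were called, beside 0.147% of all tested transcripts, and the smallest adjusted p among them was 0.52. All G libraries were below all A libraries in 3 of the 43 and above them in 4, beside 6.4% and 9.59% of all tested transcripts (16.0% for both together). Coding transcripts took 88.9%, 94.7% and 94.0% of the KRT7 reads in the G libraries and 95.4%, 96.5% and 95.6% in the A libraries (exact two-sided permutation p = 0.1), with a processed transcript, ENST00000552183, at 146 FPKM in G replicate 1 and at 42.1 FPKM or less in the other 5 libraries.

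Of KRT5, KRT6A, KRT16 and KRT17, only KRT16 was above 10 FPKM. KRT16 (chromosome 17, 41609778 to 41615899, minus strand), the type I partner of KRT6A in activated keratinocytes, was at 15.4, 15.0 and 12.7 FPKM in the G libraries and 16.0, 15.0 and 14.5 FPKM in the A libraries. The groups overlapped, with a log2 change of -0.08 and a limma adjusted p of 0.66. The change was 0.00 without G replicate 3 and 0.02 with equal sums per library, so KRT16 has no stable direction here.

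KRT6A (chromosome 12, 52487176 to 52493257, minus strand) was at 1.165, 1.077 and 1.85 FPKM in the G libraries and 1.15, 1.13 and 1.297 FPKM in the A libraries. G replicate 3 was the highest and G replicate 2 the lowest of the 6 libraries, and G replicate 1 lay among the A libraries. The log2 change was 0.09 (limma adjusted p = 0.75), and it was -0.05 without G replicate 3 and -0.04 when near copies and pseudogenes were added. The ratio of KRT6A to KRT16 was 0.0758, 0.0720 and 0.146 in the G libraries and 0.0720, 0.0756 and 0.0894 in the A libraries (exact two-sided permutation p = 0.6).

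KRT5, KRT17 and KRT81 were close to the floor of detection. KRT5 (chromosome 12, 52514575 to 52520530, minus strand) was at 0.369, 0.284 and 0.444 FPKM in the G libraries and 0.405, 0.243 and 0.197 FPKM in the A libraries. KRT17 (chromosome 17, 41619441 to 41624842, minus strand) was at 0.485, 0.617 and 0.577 FPKM in the G libraries and 0.735, 0.600 and 0.542 FPKM in the A libraries. KRT81 (chromosome 12, 52285913 to 52291534, minus strand) was at 0.526, 0.418 and 0.300 FPKM in the G libraries and 0.678, 0.478 and 0.266 FPKM in the A libraries. The groups overlapped in all 3 genes, and no difference was detectable at this depth. In a fit with no filter on low values their log2 changes were 0.09, -0.06 and -0.05, and the smallest limma adjusted p of the 3 was 0.71.

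Summing the keratins of a group gives 1 value per library, compared by exact two-sided permutation of the libraries. The 10 keratins together were at 2530.3, 2775 and 2677 FPKM in the G libraries and 2698, 3243 and 2882 FPKM in the A libraries. The 2 ranges overlapped, with a log2 difference of -0.14 (exact permutation p = 0.2), and it was -0.07 without A replicate 2 and -0.03 with equal sums per library. As a share of the summed FPKM of all genes, the 10 keratins took 1.05% ± 0.0506 in the G libraries and 1.07% ± 0.0878 in the A libraries (SD, n = 3 each, exact permutation p = 0.7). The simple keratins alone differed by -0.15 on the log2 scale (exact permutation p = 0.2), by -0.08 without A replicate 2 and by -0.04 with equal sums per library. On summed transcript FPKM, a scale chosen after seeing the data, they differed by -0.16 (exact permutation p = 0.1). The highest G library was then at 5984 and the lowest A library at 5985. On gene values, the log2 difference was -0.06 for the sum of KRT5, KRT6A, KRT16 and KRT17 (exact permutation p = 0.6), and 0.05 with equal sums per library.

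The balance between the chain types overlapped between the groups. Type II keratins summed to 0.408, 0.396 and 0.395 of the type I keratins in the G libraries and to 0.437, 0.382 and 0.412 in the A libraries, on gene values (exact permutation p = 0.6). The log2 difference was -0.04, with a sign that turned when A replicate 1 was left out or transcript FPKM were summed. KRT8 over KRT18 was 0.664, 0.688 and 0.666 in the G libraries and 0.695, 0.513 and 0.680 in the A libraries (exact permutation p = 0.9). On summed transcript FPKM, the scale per length, KRT8 over KRT18 was 1.35, 1.38 and 1.33 in the G libraries and 1.36, 0.946 and 1.38 in the A libraries (exact permutation p = 0.8), so KRT8 was the higher chain except in A replicate 2. On that scale type II over type I was 0.734, 0.675 and 0.690 in the G libraries and 0.745, 0.633 and 0.719 in the A libraries. A replicate 2 was the lowest in both ratios on both scales. Without it, the log2 difference of KRT8 over KRT18 on gene values was -0.03, against 0.11 with all 6 libraries.

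The authors' deposited table gave the same direction for each of the 7 tested keratins. Its ratios for these genes equal the ratios of the mean FPKM used here, so that match is not independent. In the deposited table, 0 of the 10 were marked significant, beside 216 of 58825 genes. Among the 10 keratins, KRT80 had the smallest p in the authors' deposited table, at 0.012 with a q-value of 0.59. KRT7 had a p of 0.026 with a q-value of 0.81.

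Of 45 other keratin genes in the table, 6 averaged at least 1 FPKM: KRT15, KRT13, KRT10, KRT6B, KRT3 and KRT9. All 6 were tested and 0 were called, with 2 positive and 4 negative log2 changes. KRT15, a type I chain of basal cells, was at 28.7, 29.8 and 30.2 FPKM in the G libraries and 27.2, 28.3 and 25.3 FPKM in the A libraries, with G above A in every library (log2 change 0.13, limma adjusted p = 0.32). KRT13, the type I chain of moist squamous linings, was at 10.5, 11.9 and 10.0 FPKM in the G libraries and 12.7, 12.9 and 12.5 FPKM in the A libraries (log2 change -0.22, limma adjusted p = 0.22). KRT10, the type I chain of the cornifying epidermis, was at 4.17, 4.798 and 4.69 FPKM in the G libraries and 4.81, 8.09 and 7.90 FPKM in the A libraries (log2 change -0.49, limma adjusted p = 0.25). In 3 of the 6 (KRT13, KRT10 and KRT3) all G libraries lay below all A libraries, beside 9.57% of all tested genes, and in 1 (KRT15) above them, beside 15.4%. In KRT10, A replicate 1 was just above the highest G library.

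The rest of the family was low. KRT6B, the near copy of KRT6A, was at 4.98, 5.05 and 4.52 FPKM in the G libraries and 4.47, 5.95 and 5.93 FPKM in the A libraries (log2 change -0.13, limma adjusted p = 0.56). The change was -0.25 without A replicate 1 and -0.08 without A replicate 2 or without A replicate 3. KRT3, a corneal chain, averaged 1.68 ± 0.150 FPKM in the G libraries and 2.08 ± 0.321 FPKM in the A libraries (SD, n = 3 each), and KRT9, the chain of palm and sole skin, 1.07 ± 0.110 FPKM in the G libraries and 0.958 ± 0.277 FPKM in the A libraries. Of 147 keratin pseudogenes, 8 were tested and 0 were called, and the 7 that averaged at least 1 FPKM were copies of KRT8. The highest, KRT8P3, was at 10.1, 8.73 and 9.49 FPKM in the G libraries and 10.39, 11.03 and 9.72 FPKM in the A libraries (log2 change -0.13, limma adjusted p = 0.44). KRT8P33, KRT8P12, KRT8P10 and KRT8P45 averaged 4.004, 2.54, 2.23 and 1.48 FPKM in the G libraries and 4.24, 2.82, 2.47 and 1.9 FPKM in the A libraries (limma adjusted p between 0.28 and 0.83). KRT8P30 and KRT8P46 averaged 1.17 and 1.24 FPKM in the G libraries and 1.02 and 0.902 FPKM in the A libraries. Read pairs estimated for the 50 KRT8 pseudogenes came to 1.42% to 1.64% of those of KRT8, and for the 67 KRT18 pseudogenes to 0.164% to 0.254% of those of KRT18.

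Keratin filaments are anchored by desmoplakin (DSP) and plectin and joined through desmosomal cadherins, so the junction genes were set beside them. Of 23 desmosome and hemidesmosome genes, 17 were tested and 0 were called, 10 with a positive and 7 with a negative log2 change and a median of 0.12. DSP was at 129, 124 and 122 FPKM in the G libraries and 104, 87.7 and 92.1 FPKM in the A libraries, with G above A throughout (log2 change 0.40, limma adjusted p = 0.15). The cadherin DSG2 was at 50.05, 46.1 and 46.5 FPKM in the G libraries and 42.1, 34.3 and 38.0 FPKM in the A libraries (log2 change 0.31, limma adjusted p = 0.19). ITGB4, the β4 integrin of hemidesmosomes, averaged 37.9 ± 1.03 FPKM in the G libraries and 33.9 ± 0.618 FPKM in the A libraries (SD, n = 3 each, limma adjusted p = 0.20). G exceeded A in every library for 5 of the 17 and was below A for 0 of them, against 15.4% and 9.57% of all tested genes.

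Among 8 genes that organise or modify keratins, all tested, 0 were called. SFN (14-3-3σ), which binds phosphorylated keratins, was at 61.8, 68.4 and 66.9 FPKM in the G libraries and 72.9, 81.3 and 78.4 FPKM in the A libraries (log2 change -0.24, limma adjusted p = 0.19). FAM83H, which recruits casein kinase to keratin filaments, was at 8.19, 8.99 and 9.29 FPKM in the G libraries and 3.10, 2.63 and 8.75 FPKM in the A libraries (limma adjusted p = 0.28). A replicate 3 was close to the G libraries. Without it the FAM83H change was 1.35 with a limma adjusted p of 0.046. PNN, a nuclear and desmosomal protein, averaged 33.3 ± 1.95 FPKM in the G libraries and 31.0 ± 1.91 FPKM in the A libraries (SD, n = 3 each).

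Of 20 epithelial transcription factors, 18 were tested and 0 were called, with 5 positive and 13 negative changes and a median of -0.07. SOX15 was at 29.8, 31.9 and 32.4 FPKM in the G libraries and 51.9, 46.1 and 40.7 FPKM in the A libraries (log2 change -0.54, limma adjusted p = 0.15). EHF, an ETS factor of glandular epithelium, was at 36.3, 35.2 and 35.1 FPKM in the G libraries and 31.8, 23.4 and 27.5 FPKM in the A libraries (log2 change 0.36, limma adjusted p = 0.20). JUNB, an AP-1 subunit, averaged 73.5 ± 8.37 FPKM in the G libraries and 89.4 ± 7.10 FPKM in the A libraries (SD, n = 3 each, limma adjusted p = 0.24). In SOX15 and EHF the groups did not overlap and in JUNB they did. G was below A in every library for 4 of the 18 and above A for 2, against 9.57% and 15.4% of all tested genes.

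Of 16 other intermediate filament genes, 8 were tested and 0 were called. NEFH, SYNM and LMNB1 had the smallest p-values, with log2 changes of 0.22, 0.18 and 0.16 (limma adjusted p = 0.28, 0.39 and 0.36). Vimentin (VIM), the filament of mesenchymal cells, stayed between 0.381 and 0.462 FPKM in the G libraries and between 0.275 and 0.482 FPKM in the A libraries. Of 18 squamous and cornified genes in the table, 7 were tested and 0 were called. The calcium-binding S100A9 was at 858, 886 and 914 FPKM in the G libraries and 951, 1003 and 955 FPKM in the A libraries (log2 change -0.13, limma adjusted p = 0.24, and 0.13 with quantile normalization). S100A7 averaged 4.33 ± 0.663 FPKM in the G libraries and 6.09 ± 0.255 FPKM in the A libraries, and SPRR1A 2.73 ± 0.626 FPKM in the G libraries and 1.57 ± 0.737 FPKM in the A libraries (SD, n = 3 each, limma adjusted p = 0.18 and 0.30).

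The cells carried the general epithelial markers while those of the lung lineage were near 0. EPCAM ranged between 109 and 119.9 FPKM in the G libraries and between 112 and 119.1 FPKM in the A libraries, and all 8 epithelial markers were tested with 0 called. CLDN4, 1 of these 8, was at 69.4, 0.504 and 75.8 FPKM in the G libraries and 3.02, 94.0 and 1.49 FPKM in the A libraries, high or low without regard to allele. TJP1, CLDN7 and CLDN3 had the smallest p-values of that list, with log2 changes of 0.13, -0.26 and -0.18. The 9 lung adenocarcinoma and alveolar markers, NKX2-1 and NAPSA among them, summed to between 0.787 and 1.39 FPKM in the G libraries and between 1.079 and 1.18 FPKM in the A libraries, and none was tested. Of 5 basal cell markers KRT15 was tested, while TP63 stayed at 0.413 FPKM or less and KRT14 at 0.317 FPKM or less.

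Markers of other cells stayed under 1 FPKM, apart from CD68 and COL1A1. Of 7 fibroblast markers COL1A1 was tested, at 1.97 ± 0.266 FPKM in the G libraries and 1.71 ± 0.120 FPKM in the A libraries (SD, n = 3 each), and 4 of the 7 stayed under 0.1 FPKM in all libraries. Of 5 leukocyte markers CD68, a lysosomal protein that is not limited to leukocytes, was tested, at 42.1 ± 6.12 FPKM in the G libraries and 39.6 ± 4.58 FPKM in the A libraries (SD, n = 3 each), while PTPRC stayed at 0.0378 FPKM or less. The 4 endothelial markers summed to between 0.451 and 0.673 FPKM in the G libraries and between 0.200 and 0.531 FPKM in the A libraries. FOXM1, the overexpressed gene, was at 14.6, 14.3 and 14.0 FPKM in the G libraries and 25.5, 10.5 and 10.1 FPKM in the A libraries (limma adjusted p = 0.97), with A replicate 1 above the rest.

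For the most abundant chain of each type on summed transcript FPKM, the 3 other tested genes with the most similar pattern were listed. By gene value, KRT7 (mean 407 FPKM) stood above KRT8 (mean 347 FPKM), so the choice of KRT8 depends on that scale. Likeness over the 6 libraries was the root mean square difference of log2(FPKM + 1) gene values centred on their mean. For KRT19 they were MCRIP2, FTH1P7 and CD163L1, with differences of 0.017, 0.019 and 0.019, against a median of 0.16 over all tested genes. For KRT8 they were KLK5, VEGFB and FTL, with differences of 0.012, 0.015 and 0.018 against a median of 0.16. KLK5, a secreted protease, averaged 187 ± 3.30 FPKM in the G libraries and 204 ± 10.6 FPKM in the A libraries (SD, n = 3 each), a log2 change of -0.12. The ferritin light chain gene FTL averaged 3732 ± 114 FPKM in the G libraries and 4062 ± 166 FPKM in the A libraries (SD, n = 3 each), a log2 change of -0.12 (limma adjusted p = 0.27). KRT19 itself had a root mean square deviation of 0.095 and KRT8 of 0.084, so both patterns are small and many genes can lie near them. The listed genes were picked for this likeness. Their changes near those of KRT19 and KRT8 follow from that choice and add no support.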

How the data were processed

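Poly(A) RNA of 6 PC9 libraries was sequenced as strand-marked read pairs, per the labels' protocols. The submitters' processing notes name cutadapt 1.9, HISAT2 2.0.4 and StringTie 1.3.4d. They also name a mouse genome build, whereas the deposited features carry human Ensembl identifiers at GRCh38 positions. Neither annotation release nor strand setting is given in the sources used here. The deposited gene and transcript tables hold FPKM, and per the file headers columns by the authors with a q-value, a p-value and the fold ratio, also as log2. The value 0.0001 was read as no estimate.

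FPKM are not counts, so log2(FPKM + 1) was tested with limma 3.58.1 and an intensity trend (R 4.3.3), after a filter of at least 1 FPKM in at least 3 of 6 libraries. P-values were Benjamini-Hochberg adjusted over all 12787 genes, or over 29990 transcripts. The fold change of low genes is understated on this scale. Alternatives changed the pseudocount, filter, scaling, trend, weights and block, or left out 1 library. Sums and ratios were tested with exact two-sided permutation tests over libraries (SciPy 1.17.1). Depth was sought only between 15000000 and 30000000 read pairs, from single-exon genes longer than 400 bases, and 27.0% to 29.7% of the low values were whole multiples of the step (tolerance 0.02 read pairs), too few to recover counts. In simulated data for G against A over 12787 genes, the fit recovered 53.2% of genes changed 1.5-fold and 82.6% of those changed 2-fold. Changes below 1.5-fold were not simulated. Those of the simple keratins, such as the KRT7 ratio of 0.827, were of that smaller size, so recovery at their size is not known.

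Sequences, exon overlaps and shared read windows came from GENCODE release 29, read with Python 3.11.15 and Biopython 1.88. That release differs in part from the annotation behind the deposited values. Its exons cover 3218 bases of KRT18 and 4093 of KRT7, against lengths of 3069 and 3999 behind the gene values. Overlaps and shared windows in the annotation used for counting may therefore differ. Sequences of the type II chains are not reported here. Correlations between libraries were 0.974 to 0.979 within and 0.970 to 0.976 between groups, and 0 columns were identical.

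The keratins and the gene lists were chosen with earlier results of these data known. Named genes were every keratin averaging 1 FPKM, up to 3 tested genes of smallest p per list, the most abundant transcript of each keratin, the 3 genes most like KRT19 and KRT8, and FOXM1. ENST00000466011, ENST00000550600, ENST00000388837, ENST00000552183, the ratio of KRT7-AS to KRT7 and markers named for their level were chosen after their values were seen.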

Additional observations from a re-analysis of the deposited data

How the results depend on the processing

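In none of the 18 alternative settings was a tested keratin called, nor was a keratin transcript in the 9 settings run for transcripts. The number of all genes called was 14, against 1 when unfiltered, 6 after quantile normalization, 6 with mitochondrially encoded genes left out, 4 without an intensity trend, and 5 to 20 when 1 library was left out (5 without A replicate 2, A replicate 3 or G replicate 3, and 6 without G replicate 2). Whether the replicate numbers pair the libraries was not settled. The deviations of same-numbered libraries correlated at 0.073, 0.015 and 0.040, and those of differently numbered libraries at -0.056 to 0.016. A replicate block gave 0 called genes, with a limma adjusted p of 0.26 for KRT7 and 0.26 for KRT80.

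KRT7, KRT8, KRT18 and KRT80 kept their sign in all 18 settings. KRT19 turned to 0.026 with equal sums and 0.25 with quantile normalization (limma adjusted p = 0.055), KRT16 to 0.022 with equal sums (-0.13 to 0.0011 with 1 library left out, the highest without G replicate 3), and KRT6A to -0.048 without G replicate 3 (up to 0.18 without G replicate 2) and -0.038 with near copies and pseudogenes added. The main transcripts of KRT16 and KRT6A turned to 0.013 and -0.058 without G replicate 3 (others to -0.19 and 0.19). KRT8P33 turned to 0.014 with equal sums and 0.071 without G replicate 1 (down to -0.17 without A replicate 3), and KRT8P30 to -0.010 without G replicate 2 (up to 0.22 without A replicate 2). S100A9 turned to 0.13 with quantile normalization, CD68 to -0.018 with array weights and -0.027 without G replicate 2 (up to 0.17), and FOXM1 to -0.16 and -0.19 without A replicates 2 and 3 (0.44 without A replicate 1). FAM83H alone passed the threshold in another setting, without A replicate 3.

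Of the sums and ratios, the basal and squamous sum turned to 0.054 with equal sums. Type II over type I was 0.0042 with transcript FPKM summed, a setting chosen after seeing the data, and between -0.088 and 0.0089 when 1 library was left out. KRT8 over KRT18 lay between -0.032 and 0.19 and KRT6A over KRT16 between -0.091 and 0.42 when 1 library was left out. The cause of these turns was not tested. With 3 against 3 libraries an exact test cannot go below 0.1, and KRT5, KRT17 and KRT81 are limited by depth.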
